A study of Mus musculus with 9 samples.

Results

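RNA from sorted mouse microglia was compared between 3 libraries of *Mcoln1*-/- mice (MLIV) and 2 libraries of wild-type littermate controls (WT replicates 1 and 2), 5 of the 9 libraries of the series. The libraries were chosen by a measured value. *Mcoln1*, the gene disrupted in MLIV, had over 50 counts in these 2 WT libraries and 2 counts in the library labelled WT replicate 3, which was therefore set aside and is shown beside the others, as are the 3 libraries of *Gla*y/- mice (Fabry disease, FD). MLIV mice were bred by intercrossing heterozygotes, and the loss is not restricted to microglia. All 9 libraries carry the strain label C57CL6J, as the deposit spells it, and no agent was given. The deposit gives an age of 4 months, whereas the methods of the study give a younger age. Live CX3CR1+, CD45+ and CD11b+ cells were sorted from brains without the spinal cord, and the methods name more mice per condition than there are libraries in a group, without saying how mice were divided among them, so p-values measure the spread between libraries, which may be partly technical. The comparison asks how loss of *Mcoln1* alters the microglial transcriptome, and it is described here for autosomal genes, 15128 of which were tested of 23248 in the table, with emphasis on transcripts that were lower and on classes other than interferon and ribosomal genes.

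TRPML1 is a cation channel of late endosomes and lysosomes that releases calcium from them and takes part in membrane trafficking, iron handling and signalling to the transcription factor TFEB, which binds the promoters of many lysosomal genes. Microglia are the resident macrophages of the brain. In the healthy brain they express a homeostatic set that includes *P2ry12*, *Tmem119* and *Cx3cr1*, and in several mouse models of neurodegeneration they express a disease-associated set that includes *Apoe*, *Cst7*, *Itgax*, *Clec7a* and *Spp1*.

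*Mcoln1* (mm10 chromosome 8, 3500519 to 3515231, plus strand) was counted 0, 0 and 18 times in the MLIV libraries and 1082 and 1517 times in WT replicates 1 and 2. There were 2 counts in WT replicate 3 as labelled, and 1442, 1227 and 892 counts in FD. Since this gene chose the libraries, no test of it is given. Totals ran from 33624404 to 37801159 counts in MLIV and were 22772260 and 33255744 in WT replicates 1 and 2. WT replicate 1 stood apart: 13802 to 14450 genes had at least 10 counts in the other 4 libraries and 20312 in it. Olfactory, vomeronasal and taste receptor genes, which microglia are not known to use, summed to 42.6 to 72.5 counts per 1e+06 counts (CPM) in MLIV, 50.8 CPM in WT replicate 2 and 987.3 CPM in WT replicate 1. Genes with a mean below 1 CPM had a median log2 fold change of -1.15. Sex-linked genes were uneven. *Xist* had 1436, 1021 and 3.97 CPM in the MLIV libraries and 4.14 and 0.523 CPM in WT replicates 1 and 2, and the Y-linked gene *Ddx3y* had 0, 26.4 and 76.2 CPM in MLIV and 90.3 and 118 CPM in WT. WT replicate 3 as labelled had 0.847 CPM of *Xist* and 103 CPM of *Ddx3y*, and the FD libraries, labelled by a genotype of males, had 1341 to 1532 CPM of *Xist* and 0 to 0.0627 CPM of *Ddx3y*. An effect of sex on autosomal genes cannot be fully told apart from that of genotype. Homeostatic microglial genes were abundant in all 5 libraries. The 40 listed summed to 61430 to 71350 CPM in MLIV and 55180 and 66660 CPM in WT. The 12 neutrophil markers, all detected in both groups, summed to 168.7, 159.2 and 298.2 CPM in MLIV and 30.45 and 59.58 CPM in WT. In bulk RNA, more cells of a type and more RNA per cell cannot be told apart.

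Of the 15128 autosomal genes, 892 were higher (5.9%) and 224 lower (1.48%) in MLIV than in WT replicates 1 and 2 by edgeR's quasi-likelihood test at a Benjamini-Hochberg adjusted p below 0.05, 7.38% in all (7.44% with X, Y and unplaced genes). All 1116 were without overlap between the groups, as were 18.6% of all genes in the higher and 17.2% in the lower direction. Levels are given as CPM after scaling by trimmed mean of M values (TMM) unless stated, and fold changes are log2 of MLIV over WT with their standard error (SE), from 3 against 2 libraries. The changes downwards were small. The median log2 fold change was -0.70 among the lower genes, 0.79 among the higher ones and -0.07 over all genes tested, and more than a 2-fold change was found for 50 lower (0.331%) and 308 higher genes (2.04%). The balance of directions depended on the scaling: with library totals in place of TMM factors, which moved the median of all genes by -0.20, 575 genes were higher and 965 lower, 37.3% higher among those called in place of 79.9%. The counts also depended on single libraries. Lower genes numbered 144 without MLIV replicate 1, 84 without MLIV replicate 2 and 532 without WT replicate 2, and higher genes 504 without MLIV replicate 2, 580 without WT replicate 1 and 1377 without WT replicate 2. With the library labelled WT replicate 3 counted as WT, 0 genes were called by edgeR in 6 libraries, with 1133 at an unadjusted p below 0.05.

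**Figure D1:**
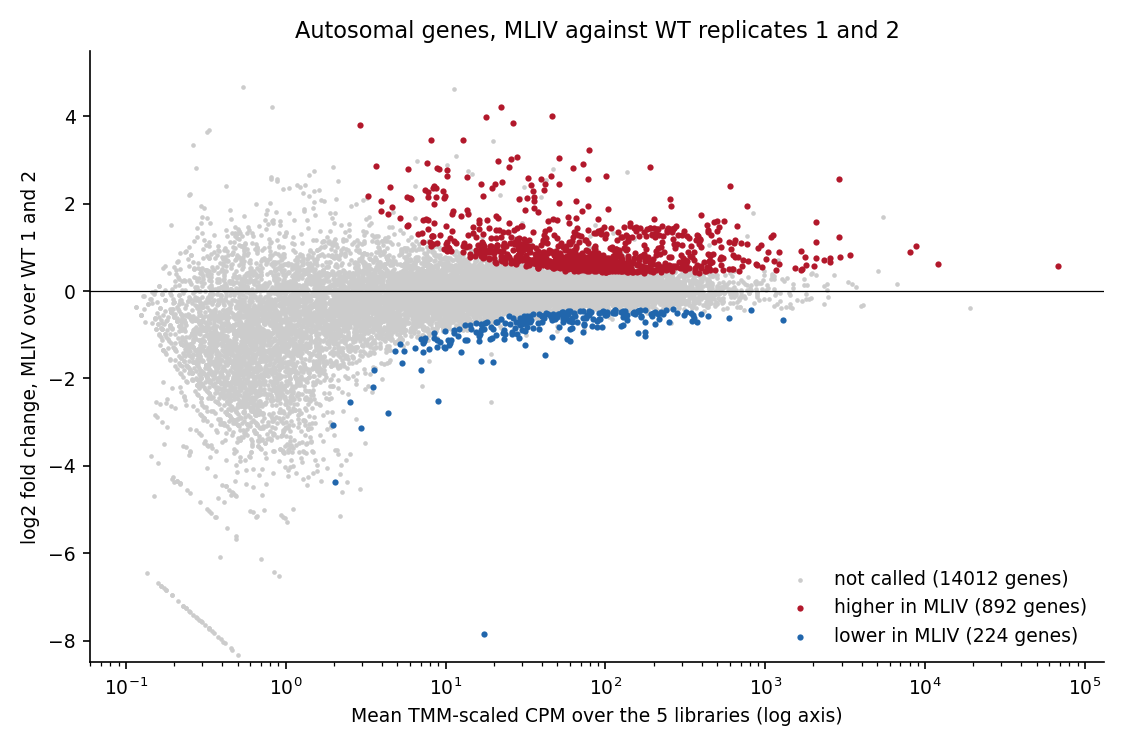
Each point is an autosomal gene, with its mean level over the 5 libraries on a log axis (TMM-scaled CPM) and its log2 fold change, MLIV over WT replicates 1 and 2. The 892 higher genes (red) reach changes above 4, most of the 224 lower genes (blue) lie between 0 and -1 apart from *Mcoln1* near the lower edge, and uncalled genes (grey) below 1 CPM lie mostly under 0.

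The lower genes were moderately expressed, with a median of 45.5 CPM over the 5 libraries, and 202 of the 214 found in GENCODE are protein coding. Among genes with a mean of at least 50 CPM, *Myo18b*, an unconventional myosin (chromosome 5, 112688876 to 112896362, minus strand), had the smallest p. Its level was 120, 122 and 133 CPM in MLIV and 247 and 264 CPM in WT, with 102 CPM in WT replicate 3 as labelled, and FD ran from 156 to 327 CPM. The groups did not overlap, and the fold change was -1.03 (SE 0.12, adjusted p = 2.02e-05, edgeR). *Iffo1*, an intermediate filament family member, showed the same separation, at 109, 112 and 125 CPM in MLIV and 228 and 222 CPM in WT (log2 fold change -0.97, SE 0.12). *Setbp1*, which encodes a protein that binds the SET oncoprotein, was at 10.6, 10.3 and 11.4 CPM in MLIV and 39.7 and 27 CPM in WT (log2 fold change -1.63, SE 0.20). *Ctnnd2*, the adhesion protein delta-catenin, was at 8.74, 11.6 and 7.2 CPM in MLIV and 33.8 and 22.1 CPM in WT (-1.60, SE 0.24). All 4 kept their call in each of the 13 alternatives fitted to these 5 libraries or to 4 of them.

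The largest falls were among genes at low levels. *Syt6*, a synaptotagmin, was at 0.683, 0.187 and 1.3 CPM in MLIV and 5.15 and 7.53 CPM in WT, and *Mtmr7*, a myotubularin-related phosphoinositide phosphatase, at 0.513, 0.498 and 0.465 CPM in MLIV and 4.42 and 3.93 CPM in WT. *Stox2*, a winged helix protein, was better measured, at 4.16, 3.36 and 1.74 CPM in MLIV and 18.7 and 16.7 CPM in WT (log2 fold change -2.52, SE 0.33, edgeR adjusted p = 5.66e-05). It was called in all 13 of these alternatives, while the calls of *Syt6* and *Mtmr7* were lost without MLIV replicate 1 and without WT replicate 2, and that of *Mtmr7* also without MLIV replicate 2 and without WT replicate 1. *Gm3002*, a predicted gene, had the most negative change after *Mcoln1* (-4.38, SE 1.2), at 0.0569, 0.0622 and 0.559 CPM in MLIV and 8.91 and 0.64 CPM in WT, and its call was lost when WT replicate 1 or either of MLIV replicates 1 and 2 was left out. How reads shared with near-identical predicted genes were counted was not examined, and the value of *Gm3002* is uncertain.

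**Figure D2:**
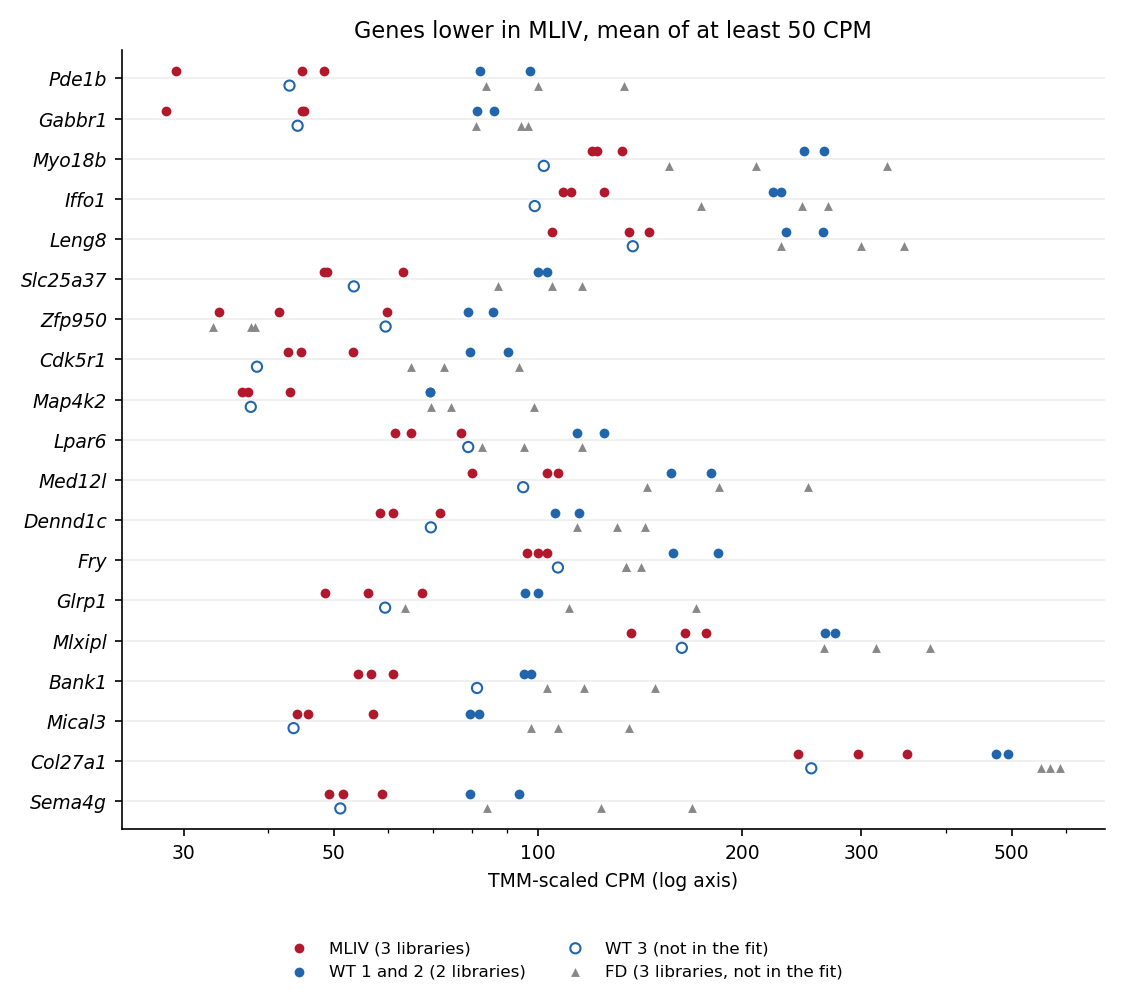
Level of 19 of the 20 genes with the most negative change among those lower in MLIV with a mean of at least 50 CPM, by library, on a log axis of TMM-scaled CPM. In each row the 3 MLIV libraries (red) lie below both WT libraries (filled blue). The library labelled WT replicate 3 (open blue) lies within or near the MLIV range for most genes, and the FD libraries (grey triangles) lie near or above WT for most genes but at the MLIV range for *Zfp950*.

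Among motor proteins, 4 of 84 tested members were lower and 10 higher, with a median log2 fold change of -0.08 against -0.07 over all genes. Without WT replicate 2, 18 were lower and 12 higher. The lower members were myosins and a kinesin. Besides *Myo18b*, the membrane-bound class I myosin *Myo1d* was at 8.48, 5.88 and 7.63 CPM in MLIV and 14.2 and 17.9 CPM in WT (-1.13, SE 0.26), a call lost without WT replicate 2. The kinesin *Kif21b* was at 483, 495 and 484 CPM in MLIV and 805 and 695 CPM in WT (-0.62, SE 0.12), a call lost without MLIV replicate 2. Within the same classes *Myo1e* moved the other way, with 70, 69.7 and 69 CPM in MLIV and 37.3 and 34.7 CPM in WT (0.95, SE 0.14). The higher members of the list included *Myo5a*, an organelle-carrying myosin, and the light chain *Dynll1*, at changes of 1.01 and 1.04.

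Of 123 tested actin cytoskeleton regulators, 4 were lower and 16 higher, a balance that depended on the scaling and the tool: with library totals 21 were lower and 10 higher, and with DESeq2 15 and 24. *Arhgef40*, an exchange factor that activates small GTPases, was at 181, 174 and 172 CPM in MLIV and 273 and 277 CPM in WT (log2 fold change -0.65, SE 0.12). The GTPase-activating proteins *Arhgap29* (-0.76, SE 0.22) and *Arhgap32* (-0.58, SE 0.17) were the other protein-coding members that fell, and *Arhgap27os3* is an opposite-strand gene whose reads cannot be told apart from those of *Arhgap27*. Among those that rose were the actin-binding proteins and actin nucleator subunits *Tmsb10* (1.11, SE 0.16), *Capg* (1.12, SE 0.19), *Cfl1* (0.81, SE 0.14) and *Arpc3* (0.80, SE 0.13). The call of *Arhgap29* was lost whichever library was left out, and leaving out single libraries gave 1 to 2 lower and 7 to 24 higher members, the fewest higher ones without MLIV replicate 2. Chosen after their values were seen, *Mical3*, an enzyme of the family that oxidizes actin, and the neuron navigators *Nav1* and *Nav2*, which guide the cytoskeleton at the cell edge, were also lower, at -0.72 (SE 0.15), -0.55 (SE 0.13) and -0.51 (SE 0.12). The third navigator, *Nav3*, was at 558, 661 and 713 CPM in MLIV and 838 and 901 CPM in WT without passing the test (edgeR adjusted p = 0.0559).

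The 125 adhesion and other G protein-coupled receptors tested had a median change of -0.38 against -0.07 over all genes. Their median level was 2.19 CPM, and all genes of 1 to 5 CPM had a median change of -0.405. Of the 125 receptors, 5 were lower (4%) and 5 higher (4%), against 1.48% and 5.9% of all genes. With library totals 10 were lower and 2 higher, with DESeq2 15 and 10, and without WT replicate 2 13 and 8. *Gabbr1*, a subunit of the GABA-B receptor, was at 28.3, 44.9 and 45.1 CPM in MLIV and 86.1 and 81.4 CPM in WT (log2 fold change -1.09, SE 0.18). *Lpar6*, a lysophosphatidic acid receptor, was at 61.6, 77.1 and 65 CPM in MLIV and 114 and 125 CPM in WT (-0.81, SE 0.13). *Adgrl1*, a latrophilin, was at 19, 12.6 and 24.6 CPM in MLIV and 35.4 and 38.3 CPM in WT (-0.98, SE 0.22), a call lost without MLIV replicate 1. *Cxcr4*, the receptor of CXCL12, was higher, at 5.95, 8.8 and 10.1 CPM in MLIV and 2.09 and 1.63 CPM in WT (2.16, SE 0.41), and *Ptger4*, a prostaglandin E2 receptor, changed by 1.31, a call lost when any of 4 libraries was left out. Phosphodiesterases and cyclases, which break down and make cyclic nucleotides, are a family chosen after its values were seen, with 3 called of 30 tested beside 7.38% of all genes. *Pde1b*, a calmodulin-dependent phosphodiesterase, was at 29.2, 44.8 and 48.4 CPM in MLIV and 97.3 and 82.1 CPM in WT (-1.14, SE 0.18), and *Adcy8*, a calcium-stimulated adenylate cyclase, at 6.49, 5.19 and 5.12 CPM in MLIV and 14.9 and 12.2 CPM in WT (-1.27, SE 0.27), a call lost without WT replicate 1. *Pde2a* was higher (1.32, SE 0.29), a call lost without MLIV replicate 1 and without MLIV replicate 2.

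Of 54 semaphorins, plexins, ephrins and slit receptors, which convey guidance and contact signals, 3 were lower (5.56%) and 2 higher (3.7%). Over all genes 1.48% were lower and 5.9% higher. The list had a median level of 1.45 CPM and a median change of -0.67, beside -0.405 for all genes of 1 to 5 CPM. *Sema4b* was at 33.6, 29.6 and 23.9 CPM in MLIV and 50 and 55.7 CPM in WT (-0.87, SE 0.17), and *Sema4g* at 58.8, 49.1 and 51.5 CPM in MLIV and 93.7 and 79.5 CPM in WT (-0.70, SE 0.14). Both calls held whichever library was left out. Among 34 genes of Notch, Wnt and Hedgehog signalling, 2 were lower (5.88%) and 0 higher, with a median of -0.26 against -0.07 over all genes. *Notch4*, a receptor of that pathway, was at 11.9, 13.6 and 13.6 CPM in MLIV and 28 and 27.9 CPM in WT (-1.10, SE 0.19), with 20.5 CPM in WT replicate 3 as labelled, and the Notch coactivator *Maml3* at 128, 138 and 124 CPM in MLIV and 161 and 200 CPM in WT (-0.47, SE 0.13). The call of *Maml3* was lost without each MLIV library and without WT replicate 2. In Toll-like receptor and NF-kB signalling, 1 of 31 genes was lower (3.23%) and 3 were higher (9.68%). The lower one was *Tlr5*, the flagellin receptor, at 17.1, 17.9 and 12.8 CPM in MLIV and 36 and 32.5 CPM in WT (-1.10, SE 0.19). *Tlr2*, the receptor for bacterial lipopeptides, was higher at 135, 130 and 104 CPM in MLIV and 73.6 and 72.4 CPM in WT (0.75, SE 0.14).

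RNA-processing genes contributed 4 lower and 1 higher of 53 spliceosome and RNA-binding proteins, 7.55% lower against 1.48% of all genes, with a median of -0.04. *Srsf5*, a serine- and arginine-rich splicing factor, was at 294, 286 and 302 CPM in MLIV and 474 and 422 CPM in WT (log2 fold change -0.61, SE 0.12). *Hnrnph1* (-0.55, SE 0.13) and *Clk1* (-0.48, SE 0.13), a kinase that phosphorylates such factors, were also lower. All 4 lower members lost their call without MLIV replicate 2, whereas 13 were lower with DESeq2 and 17 with library totals. Named after their values were seen, *Leng8* was at 105, 136 and 146 CPM in MLIV and 263 and 232 CPM in WT (-0.94, SE 0.14), *Tia1*, which binds uridine-rich RNA, at 39.7, 42.5 and 47.5 CPM in MLIV and 70.7 and 70.1 CPM in WT (-0.70, SE 0.14), and *Pnisr*, *Snrnp70*, *Ccnl2*, *Prpf39* and *Prpf40b* changed by -0.69, -0.51, -0.50, -0.50 and -0.64. *Leng8* and *Tia1* kept their call in all alternatives on the 5 libraries, while the other 5 lost theirs without MLIV replicates 1 and 2. Of 16 CLK kinases and SR proteins tested, 11 had a negative change and 2 were called lower, beside 1.48% lower of all genes. The median change over all genes was itself negative, at -0.07.

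The 400 tested genes named as zinc finger proteins, many of them DNA-binding repressors, had a median exonic length of 3517.5 bases. Their median change was -0.19, with 317 negative, against -0.07 over all genes and -0.09 among all genes of 3 to 4 kb. Of the 400, 15 were lower (3.75%) and 0 higher, against 1.48% and 5.9% of all genes. Examples are *Zfp445*, which acts at imprinted loci, at 96.5, 110 and 115 CPM in MLIV and 155 and 172 CPM in WT (-0.61, SE 0.13), and *Zfp950*, at 33.8, 41.5 and 59.8 CPM in MLIV and 78.8 and 85.8 CPM in WT (-0.87, SE 0.19). The number of lower members was 8 without MLIV replicate 1, 4 without MLIV replicate 2 and 8 without WT replicate 1, and it was 49 with DESeq2 and 51 with library totals. Of 69 chromatin modifiers and remodellers, with a median exonic length of 7281 bases, 2 were lower (2.9%) and 0 higher. Among all genes of 6 to 8 kb, 2.79% were lower and 2.09% higher. Of 56 replication-dependent histone genes, with a median length of 483 bases, 0 were lower and 7 higher (12.5%), with a median of 0.60. Among all genes of up to 1 kb, 13.9% were higher, with a median of 0.24. The part of length in these counts was not tested. *Tet3*, a dioxygenase that oxidizes 5-methylcytosine, was at 162, 167 and 162 CPM in MLIV and 241 and 244 CPM in WT (-0.57, SE 0.12), and the histone H3 methyltransferase *Kmt2d* changed by -0.44 (SE 0.12). *Tet1* was at 12.8, 10.8 and 20.3 CPM in MLIV and 33.1 and 25.8 CPM in WT (-1.01, SE 0.24), and *Tet2* did not pass the test, at 161, 193 and 186 CPM in MLIV and 224 and 226 CPM in WT. Without MLIV replicate 2 neither *Tet3* nor *Tet1* nor *Kmt2d* was called. Of 52 microglial and myeloid transcription factors, *Nfat5*, which responds to osmotic stress, was the lower member (-0.54, SE 0.13) and *Cebpb*, an inflammatory regulator, the higher one (0.60, SE 0.14), 1.92% in each direction against 1.48% lower and 5.9% higher of all genes. The call of *Nfat5* was lost when any of 3 libraries was left out, and that of *Cebpb* without MLIV replicate 2 and without WT replicate 1.

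Genes of membrane traffic were among the lower ones in 2 families chosen after their values were seen. Of 8 proteins with a BEACH domain, large scaffolds in vesicle traffic, 3 were lower and 0 higher, beside 1.48% lower of all genes. The 3 have exonic lengths of 8803 to 11507 bases, and 7.08% of all genes over 8 kb at 20 CPM or more were lower. The part of length was not tested. *Nbea* was at 117, 134 and 172 CPM in MLIV and 229 and 230 CPM in WT (log2 fold change -0.70, SE 0.15). *Lrba*, known for its part in the recycling of CTLA4, was at 155, 163 and 172 CPM in MLIV and 243 and 227 CPM in WT (-0.53, SE 0.12), and *Nbeal2* at 79.7, 86.3 and 85.6 CPM in MLIV and 129 and 115 CPM in WT (-0.54, SE 0.12). All 3 calls were lost without MLIV replicate 2. *Lyst*, a regulator of lysosome size in the same family, had 220, 294 and 305 CPM in MLIV and 217 and 268 CPM in WT, and the groups overlapped. Of 15 proteins with a DENN domain, which activate Rab GTPases, *Dennd1c* (-0.79, SE 0.13) and *Dennd2c* (-0.79, SE 0.17) were lower, beside 1.48% of all genes.

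Of 279 solute carriers, 5 were lower (1.79%) and 7 higher (2.51%), against 1.48% and 5.9% of all genes. With library totals 20 were lower and 6 higher, and without WT replicate 2 18 and 13. *Slc25a37*, mitoferrin-1, which imports iron into mitochondria, was at 48.3, 48.8 and 63.2 CPM in MLIV and 100 and 103 CPM in WT (-0.93, SE 0.14), and *Ppox*, an enzyme of heme synthesis, at 23.1, 24.1 and 23.2 CPM in MLIV and 36.1 and 40.4 CPM in WT (-0.70, SE 0.16). They were the 2 lower members of 11 tested genes of heme synthesis and mitochondrial iron import, a family chosen after its values were seen, of which 5 had a negative change. Genes of iron storage and heme breakdown named here were higher. *Fth1*, the ferritin heavy chain, was at 1530, 1460 and 1390 CPM in MLIV and 492 and 702 CPM in WT (1.29, SE 0.15), *Ftl1*, the light chain, changed by 1.13 (SE 0.15) and heme oxygenase *Hmox1* by 1.18 (SE 0.17). *Slc38a9*, a lysosomal amino acid transporter and arginine sensor of mTORC1, was at 41.1, 33 and 39.9 CPM in MLIV and 55.9 and 58.5 CPM in WT (-0.59, SE 0.15), the 1 lower gene among 34 lysosomal membrane and acidification genes, and its call was lost without MLIV replicate 2 and without either WT library. *Mlxipl*, the glucose-responsive transcription factor ChREBP, was at 137, 177 and 165 CPM in MLIV and 265 and 274 CPM in WT (-0.76, SE 0.13). *Txnip*, a known target of ChREBP in other tissues that restrains glucose uptake, was at 338, 346 and 332 CPM in MLIV and 457 and 512 CPM in WT (-0.52, SE 0.12), a call lost without MLIV replicate 2, and the related *Arrdc4* was at 24.8, 44.3 and 35.9 CPM in MLIV and 22.9 and 23.8 CPM in WT without passing the test. *Slc2a1*, the glucose transporter GLUT1, was higher, at 63.1, 50.1 and 51.7 CPM in MLIV and 29.7 and 27.9 CPM in WT (0.93, SE 0.16). *Alox5*, the first enzyme of leukotriene synthesis, was lower (-0.57, SE 0.15), and *Hpgd*, which inactivates prostaglandins, was higher (0.63, SE 0.15). The call of *Alox5* was lost on removal of any of 4 libraries.

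Matrix and adhesion genes added *Col27a1*, a fibrillar collagen, at 242, 297 and 350 CPM in MLIV and 474 and 494 CPM in WT (log2 fold change -0.71, SE 0.14), and *Itga9*, an integrin subunit, at 138, 126 and 155 CPM in MLIV and 200 and 214 CPM in WT (-0.57, SE 0.13). Of 83 matrix genes 4 were lower (4.82%) and 3 higher (3.61%), against 1.48% and 5.9% of all genes. The list had a median level of 1.64 CPM and a median change of -1.3, beside -0.405 for all genes of 1 to 5 CPM. The higher ones included *Timp2*, an inhibitor of matrix metalloproteinases (1.10, SE 0.14). *Stab1*, a scavenger receptor also used as a marker of border-associated macrophages, was at 408, 373 and 318 CPM in MLIV and 527 and 556 CPM in WT (-0.56, SE 0.13). Of the 11 border macrophage markers, 1 was lower and 1 higher, and 7 had a positive change, with a median of 0.21. They summed to 618.4 to 645.5 CPM in MLIV and 829.1 and 624.3 CPM in WT. The part of border macrophages in the difference of *Stab1* was not tested.

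Of 39 homeostatic microglial genes tested, 1 was lower and 1 higher (2.56% each), against 1.48% and 5.9% of all genes, and the median was -0.05. With library totals 15 were lower, with DESeq2 6, and without WT replicate 2 6 were higher. The lower gene was *Upk1b*, a tetraspanin, at 27.4, 24 and 29.2 CPM in MLIV and 49 and 38.8 CPM in WT (-0.71, SE 0.17), a call lost without MLIV replicate 2 and without WT replicate 1. *P2ry12*, the purinergic receptor that steers microglial processes, was at 2394, 2074 and 1992 CPM in MLIV and 2460 and 2796 CPM in WT without passing the test (log2 fold change -0.29, SE 0.14, edgeR adjusted p = 0.258). *Cx3cr1*, the fractalkine receptor by which the cells were sorted, was at 4173, 3706 and 3265 CPM in MLIV and 4318 and 4969 CPM in WT (-0.32, SE 0.14, edgeR adjusted p = 0.22), and *Tmem119* overlapped between the groups.

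The library labelled WT replicate 3 and the FD libraries, which took no part in the fit, were placed against the means of both groups for each of the 223 lower genes other than *Mcoln1*. The library labelled WT replicate 3 lay nearer the MLIV mean for 188 of them (84.3%), and for 846 of the 892 higher genes (94.8%). The FD libraries lay nearer MLIV for 9.42 to 26% of the lower and 9.75 to 23.4% of the higher genes. For 5 lower genes, among them *Zfp867*, *Slc15a2*, *Stab1* and *Mysm1*, the library labelled WT replicate 3 was at or above the lower of WT replicates 1 and 2. *Stab1* was at 564 CPM in it, above the 527 and 556 CPM of both. *Stox2* was near WT there, at 14.9 CPM, while it had 2.6, 4.47 and 4.1 CPM in FD, the range of MLIV. All 3 FD libraries were at or below the highest MLIV library for 7 lower genes, among them *Nbea*, at 110, 111 and 133 CPM in FD, and *Zfp950*, at 37.7, 33.2 and 38.3 CPM. At 72 lower genes all 3 FD libraries were at least as high as the lower WT library.

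Outside the interferon and cytosolic ribosomal protein lists, 768 genes were higher. The disease-associated set stood at the front, with 32 of 33 tested members higher (97%), 0 lower and a median of 1.48. Over all genes 5.9% were higher. The list was drawn with earlier results of these data known. *Cst7*, an inhibitor of lysosomal cysteine proteases, was at 67.6, 78.2 and 78.1 CPM in MLIV and 4.53 and 4.77 CPM in WT, with 76 CPM in WT replicate 3 as labelled, and FD ran from 0 to 5.95 CPM (log2 fold change 4.00, SE 0.18). *Apoe*, the lipid carrier, was at 3680, 4170 and 5090 CPM in MLIV and 936 and 532 CPM in WT (2.56, SE 0.25). *Spp1*, osteopontin, was at 29.9, 43.3 and 26.9 CPM in MLIV and 7.79 and 4.07 CPM in WT (2.5, SE 0.30). Less often listed with that set were *Lox*, a collagen cross-linking oxidase, at 42.4, 35.2 and 48.9 CPM in MLIV and 2.17 and 3.66 CPM in WT (3.84, SE 0.26), *Chst2*, a carbohydrate sulfotransferase (2.82, SE 0.17), *Hpse*, heparanase (3.46, SE 0.40), and the lipid chaperone *Fabp5* (2.92, SE 0.34). Neutrophil granule genes were also called, 4 of 12 markers, *Lcn2*, *Ltf*, *Ngp* and *Camp*, with *Ltf* at 21.3, 17.7 and 35.4 CPM in MLIV and 4.96 and 5.99 CPM in WT. The part of neutrophil RNA in other higher genes was not tested.

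**Figure D3:**
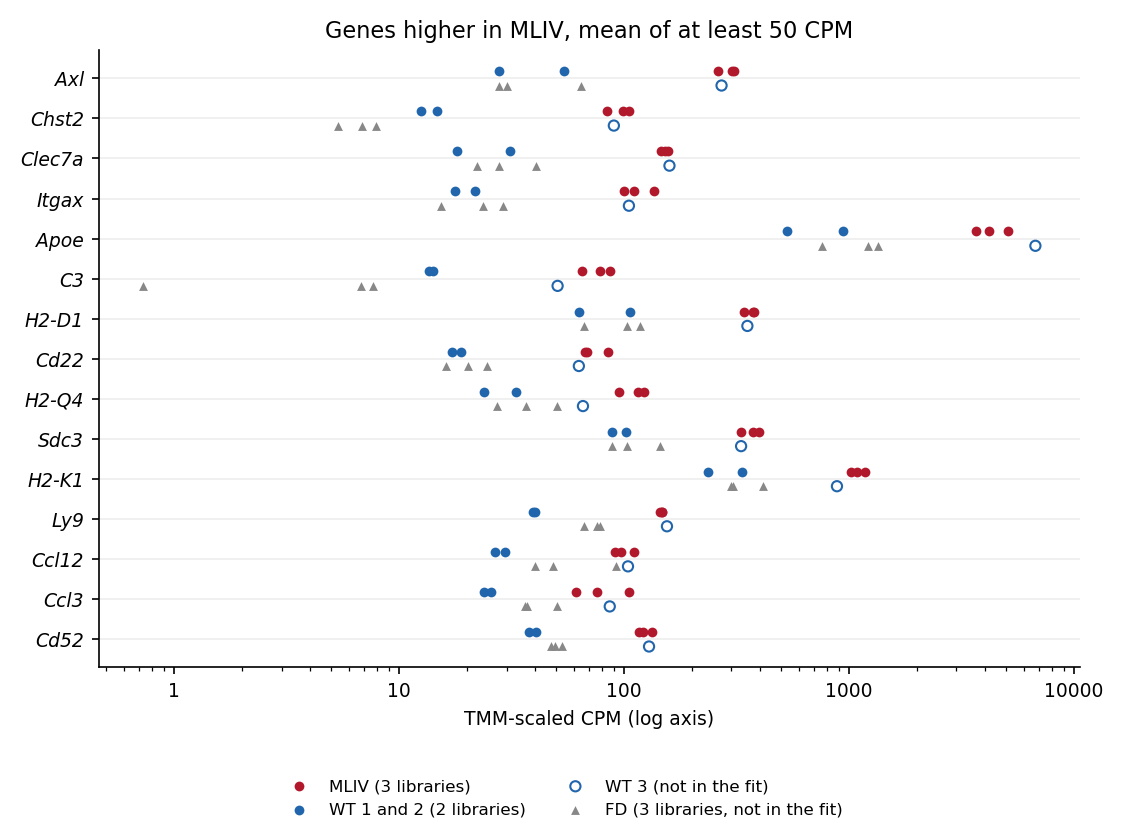
Level of the 15 genes with the most positive change among those higher in MLIV with a mean of at least 50 CPM, outside the interferon and ribosomal lists, by library on a log axis of TMM-scaled CPM. The 3 MLIV libraries (red) lie above both WT libraries (filled blue) in every row, the library labelled WT replicate 3 (open blue) lies with or near MLIV, and the FD libraries (grey triangles) lie near WT for most genes.

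Lysosomal genes were raised to a smaller extent. Of 40 enzymes, 25 were higher (62.5%) and 0 lower (median 0.54). Of 34 membrane and acidification genes, 14 were higher (41.2%) and 1 lower (median 0.29). Over all genes 5.9% were higher and 1.48% lower. *Ctsd*, the aspartic protease cathepsin D, was at 10858, 9850 and 8862 CPM in MLIV and 4250 and 6389 CPM in WT (0.89, SE 0.17). *Ctsl*, the cysteine protease cathepsin L, was at 1030, 992 and 902 CPM in MLIV and 377 and 543 CPM in WT (1.08, SE 0.15). *Gaa*, acid alpha-glucosidase, was at 215, 192 and 166 CPM in MLIV and 105 and 130 CPM in WT (0.70, SE 0.14), and *Atp6v1a*, the catalytic subunit of the vacuolar proton pump, at 76.1, 72.4 and 67.2 CPM in MLIV and 39 and 45.7 CPM in WT (0.76, SE 0.14). The number of higher enzymes fell to 9 without MLIV replicate 2 and 12 without WT replicate 1, and *Ctsd* and *Gaa* lost their call without MLIV replicate 2. Of the membrane genes, 7 were higher without MLIV replicate 2 and 8 with library totals or without WT replicate 1.

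Promoter sequences of 250 bases before the start were taken from RefSeq (GRCm38.p6, the same assembly as mm10), for 11225 of the 15128 genes, 167 of the 224 lower and 679 of the 892 higher. The start farthest upstream in RefSeq was used for each gene, which was over 1000 bases from the start of the counted gene for 3.82% of these genes. With the start nearest the counted gene, an alternative chosen after seeing the data, the shares of the E-box were 8.08% of all, 5.99% of the lower and 27.6% of the higher lysosomal genes. The letters CACGTG, an E-box that forms the core of the element bound by TFEB and reads the same on both strands, were in 8.08% of all promoters, 5.99% of those of the lower genes, 7.95% of those of the higher genes and 8 of 29 (27.6%) of those of the higher genes on the lysosomal lists. The whole 10-base element with these letters at its centre was in 0.526% of all promoters and 2 of 167 (1.2%) of those of the lower genes. It was in 6 of 679 (0.884%) of those of the higher genes and 0 of these 29. Neither share was computed for lysosomal genes that were not called, so a difference between these and the higher ones is not shown. The stretches below show the match CACGTG in capitals, 5′ to 3′ on the gene's strand, for 4 lysosomal genes that were higher.
Ctsd, minus strand, chr7:142387880-142388077: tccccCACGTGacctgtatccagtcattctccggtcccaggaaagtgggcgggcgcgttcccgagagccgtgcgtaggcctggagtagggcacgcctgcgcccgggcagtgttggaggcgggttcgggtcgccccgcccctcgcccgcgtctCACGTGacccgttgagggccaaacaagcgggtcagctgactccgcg
Ctsl, minus strand, chr13:64370711-64370770: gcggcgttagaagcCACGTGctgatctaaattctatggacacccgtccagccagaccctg
Gaa, plus strand, chr11:119267783-119267868: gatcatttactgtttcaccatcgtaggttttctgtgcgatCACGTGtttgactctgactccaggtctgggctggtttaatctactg
Atp6v1a, minus strand, chr16:44139345-44139430: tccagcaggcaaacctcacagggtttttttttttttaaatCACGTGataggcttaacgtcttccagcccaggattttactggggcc

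In these stretches *Ctsd* holds the match 2 times and each other gene holds it 1 time. The other motifs were searched on both strands. The core of the interferon-stimulated response element, GAAA repeated after any 2 bases, was in 2.99% of the promoters of the lower genes against 2.57% of all and 7.07% of those of the higher genes, the ETS core CCGGAAGT in 5.39% of those of the lower genes against 5.43% of all, and the GC box GGGCGG in 63.5% against 55.4%. The promoters of the lower genes had a median GC content of 61.2%, against 59.2% over all genes. A match is a description of letters and not of binding.

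On the lists of respiratory chain, glycolysis, proteasome and translation genes, the called genes were higher, beside 5.9% higher and 1.48% lower of all genes. Of 77 respiratory chain and ATP synthase genes, 40 were higher (median 0.65), among them *Uqcrh* of complex III at 92.8, 99.5 and 83.4 CPM in MLIV and 34.2 and 42.4 CPM in WT (log2 fold change 1.26, SE 0.15) and *Cox4i1* of complex IV (1.17, SE 0.13). Of 23 glycolysis genes, 9 were higher (median 0.50), with the pyruvate kinase *Pkm* at 483, 399 and 381 CPM in MLIV and 152 and 201 CPM in WT (1.26, SE 0.15). None of 15 tricarboxylic acid cycle genes, 23 genes of cholesterol synthesis and LDL uptake or 25 phosphoinositide kinases and phosphatases was called. Of 77 mitochondrial ribosomal proteins 3 were higher (3.9%), below the 5.9% of all genes. Of 41 proteasome subunits 10 were higher, led by *Psme1*, a part of the interferon-inducible activator, at 284, 295 and 290 CPM in MLIV and 127 and 137 CPM in WT (1.13, SE 0.12), and of 59 translation factors 19 were higher, led by *Eef1b2* (1.41, SE 0.14). Without WT replicate 1, 16 of the respiratory chain genes, 4 of the proteasome subunits and 11 of the translation factors were higher. Without MLIV replicate 2 these numbers were 23, 4 and 10, and without WT replicate 2 they were 47, 20 and 28. With library totals, 23 respiratory chain genes and 5 proteasome subunits were higher. The respiratory chain genes are short, with a median exonic length of 681 bases, and 51.9% were higher, beside 48% with a median change of 0.62 among all genes of up to 1 kb at 20 CPM or more outside the ribosomal list. The part of length in the result was not tested.

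**Figure D4:**
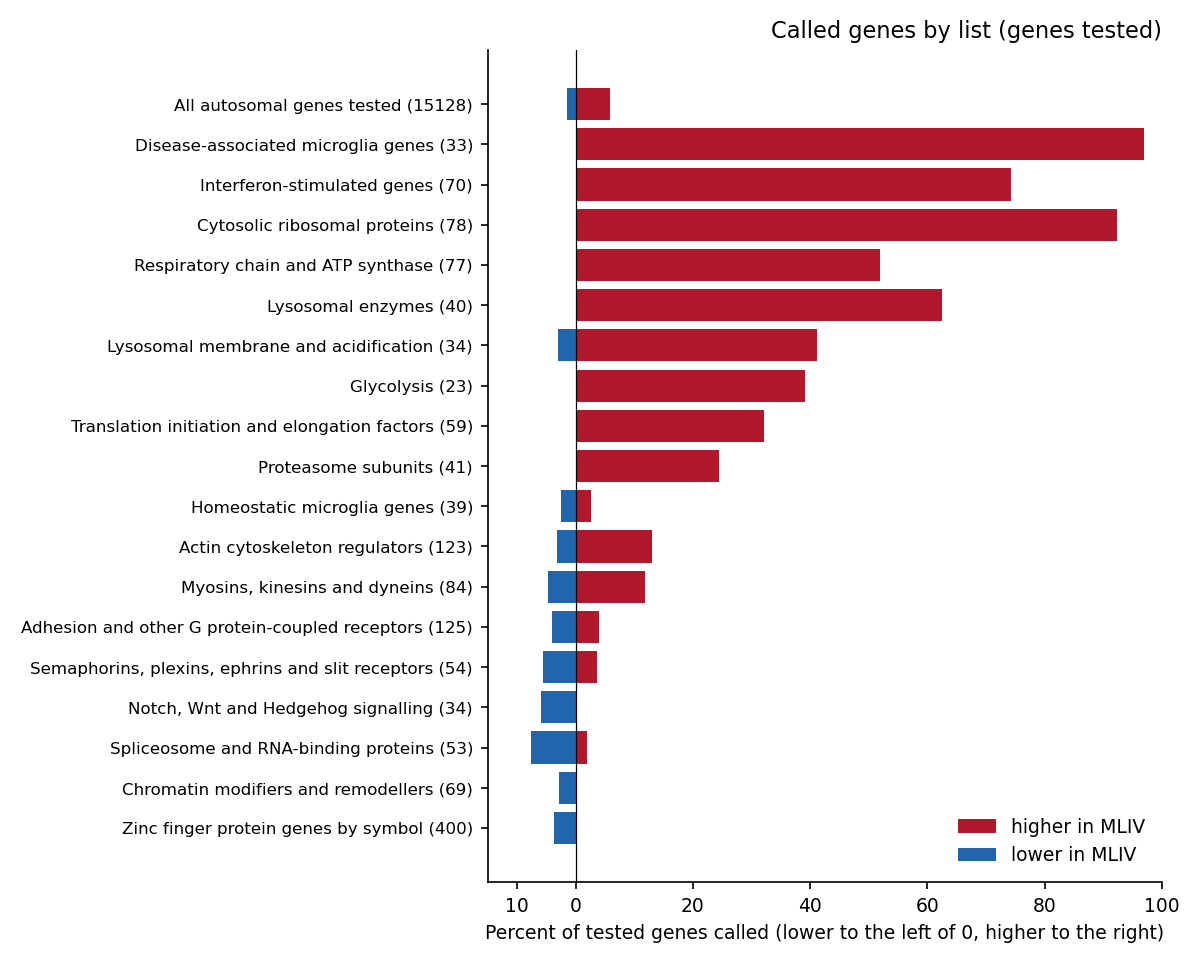
Percent of the tested genes of each list that were called higher (red, to the right of 0) or lower (blue, to the left) in MLIV, with the number tested in parentheses and all 15128 autosomal genes as the first bar. Disease-associated, ribosomal and lysosomal lists have higher genes in the main, whereas the zinc finger, chromatin and Notch, Wnt and Hedgehog lists have only lower ones.

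Lower and higher genes differed in length. The median exonic length was 4373.5 bases for the lower genes, 1914 bases for the higher ones and 2794 bases over all genes tested. Of 1461 genes of up to 1 kb, 203 (13.9%) were higher and 1 (0.0684%) lower, and of 695 genes over 8 kb, 12 (1.73%) were higher and 33 (4.75%) lower. Among genes of at least 20 CPM without ribosomal proteins, the higher share was 48% up to 1 kb and 2.83% over 8 kb, and the lower share 0% and 7.08%. At that level the lower genes also had longer coding sequences, with a median of 2046 coding bases against 1398 over all genes and 876 in the higher genes without ribosomal proteins, and 14.5 exons against 11 and 7. Spearman's rank correlation between length and log2 fold change was -0.21 over the autosomal genes, which share their 5 libraries and are not independent replicates. A transcript annotated with a retained intron was present for 68.6% of the lower genes at that level, against 66.2% of all.

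The same course was present in the libraries themselves. Genes of up to 1 kb took 7.684%, 6.49% and 7.198% of the counts in MLIV and 3.932% and 4.516% in WT replicates 1 and 2, and genes over 8 kb took 9.291%, 9.918% and 10.26% in MLIV and 12.27% and 11.85% in WT. WT replicate 3 as labelled had 6.452% and 9.818%, within or beside the MLIV range, and the FD libraries had 3.252 to 4.746% and 11.59 to 13.16%. The 3 libraries with the largest share of ribosomal RNA among the 5 were those of MLIV, at 7.591%, 6.814% and 7.712% of counts, against 6.714% and 4.727% in WT. Whether RNA size or quality differed between the libraries was not tested.

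**Figure D5:**
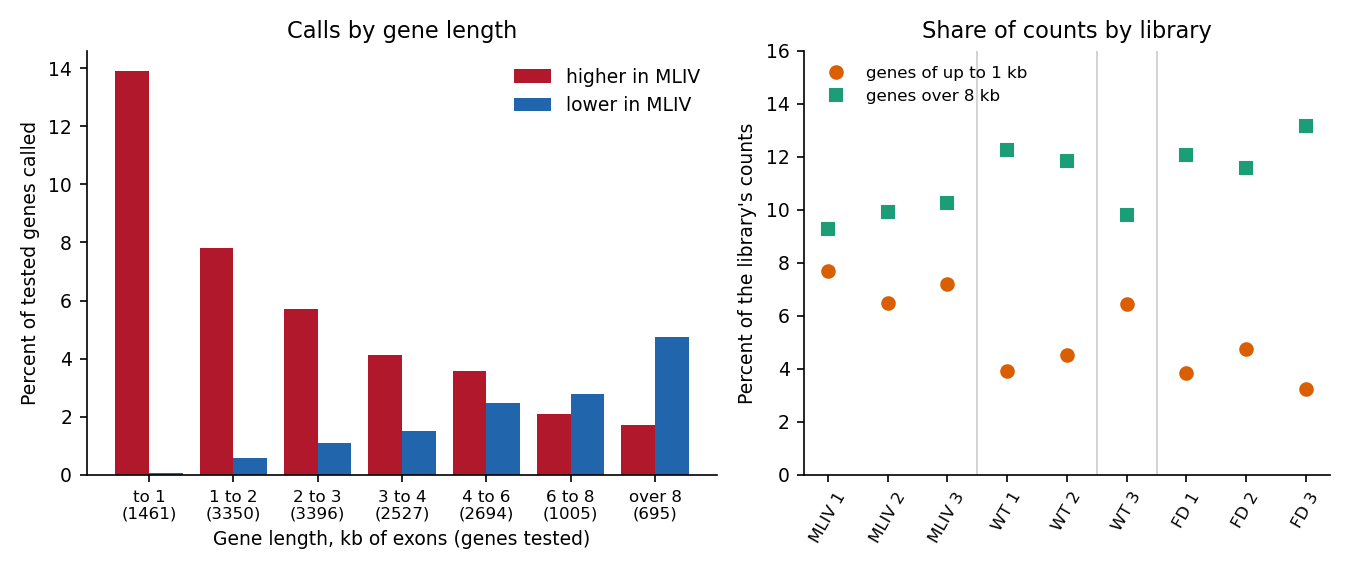
Left, percent of tested genes called higher (red) or lower (blue) in MLIV by exonic gene length in kb, with the number of genes in parentheses. Right, percent of each library's counts in genes of up to 1 kb (circles) and over 8 kb (squares). Shorter genes were higher more often and longer genes lower more often, and the library labelled WT replicate 3 sits with MLIV in both shares while FD sits with WT replicates 1 and 2.

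Genes near *Mcoln1* were counted apart from the others. Within 5 Mb of it, 34 genes were tested and 3 were called (8.82%), against 5.19% from 5 to 20 Mb, 8.48% of the rest of chromosome 8 and 7.33% of other autosomes. *Cers4*, a ceramide synthase, was at 14, 15.9 and 27.2 CPM in MLIV and 6.35 and 4.19 CPM in WT (log2 fold change 1.86, SE 0.31), and *Pet100*, a chaperone of complex IV assembly, at 50.5, 45.2 and 36.2 CPM in MLIV and 21.2 and 27.8 CPM in WT (0.84, SE 0.19). The lower gene was *Map2k7*, a kinase that activates JNK, at 50, 45.6 and 45 CPM in MLIV and 67.3 and 63.6 CPM in WT (-0.48, SE 0.14), and its call was lost when any of 4 libraries was left out.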

How the data were processed

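The authors prepared libraries with a stranded total RNA kit, aligned reads with STAR 2.5.1 to mm10 and deposited a table of gene counts. Its header gives featureCounts 1.4.6-p3 and names 21 libraries, and the table has 9 columns of samples, with 0 per-sample columns left unused. The command holds no strand or read-pair option, so reads were not separated by strand, and those of overlapping and antisense genes cannot be told apart. The deposited counts are whole numbers and were not normalized, and gene length is the deposited count of exonic bases. The authors' 2 tables of their own comparisons (mean signal, fold change, p-values) were not used.

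From the counts of 5 libraries, genes were kept by filterByExpr (15654 of 24421, 15128 autosomal), scaled by TMM and tested with edgeR 4.0.16 (robust quasi-likelihood), with Benjamini-Hochberg adjustment over all tested genes at 0.05. CPM values are counts in a TMM-scaled library of 1e+06. The SE is the log2 fold change over the square root of F. No library pair was a duplicate (chi-square per gene 34.9 or more). The script was tested on simulated data. Promoter letters and transcript types come from RefSeq and GENCODE.

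Members, the 65 gene lists and families were chosen with earlier results of these data known. Named genes are, outside the interferon and ribosomal lists, the 20 most negative and 15 most positive called changes, the same with a mean of at least 50 CPM, up to 4 members of each list by smallest p, called genes within 5 Mb of *Mcoln1*, and genes added after their values were seen. Alternatives were DESeq2 1.42.0, limma 3.58.1 voom with sample weights, RLE factors, library totals, no filter, at least 10 counts in every library, other library sets, a replicate block, removal of ribosomal genes, a fold threshold and leaving out each library. R 4.3.3 was used. Some genes called by these rules are not reported here.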

Additional observations from a re-analysis of the deposited data

Results flagged for a closer look

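The library labelled WT replicate 3 took no part in the fit, yet its level lay nearer the MLIV mean than the mean of WT replicates 1 and 2 for 84.3% of the 223 genes lower in MLIV other than *Mcoln1* and for 94.8% of the 892 higher ones. The FD libraries gave 9.42 to 26% and 9.75 to 23.4%. It stands here because a library outside the comparison lay with MLIV more often than the other libraries left out. Groups of 2 and 3 libraries were too small for a test of single outlying libraries.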

How the results depend on the processing

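The direction of all 253 named genes that were called was the same in each alternative that gave them a value. Called genes did not overlap between the groups, and every alternative reused these libraries, so a reversal could hardly arise. The sameness of direction is therefore no separate support. Calls were the part that moved. Against 892 higher and 224 lower genes, DESeq2 gave 1529 and 934, library totals 575 and 965, the 3 FD libraries added to share the spread 263 and 24, a change of more than 1 on the log2 scale 308 and 50, and 6 or 9 libraries as labelled 0 and 0 by edgeR. Lower genes numbered 383 with limma voom, 381 with no filter on low counts and 392 with at least 10 counts in every library. With 9 libraries, 683 genes had an unadjusted p below 0.05. Leaving out 1 library gave 504 to 1377 higher and 84 to 532 lower genes, and of the 94 named lower genes 61 lost their call in at least 1 of these fits and 47 without MLIV replicate 2. A single WT library then stands for its group and is assumed to vary like MLIV. The replicate number as a block gave 1050 higher and 386 lower genes. Deviations of same-numbered libraries correlated at -0.07 and -0.03 over the 2 shared numbers. The deviations of 2 WT libraries mirror each other, so these values cannot decide whether a number stands for more than a label. The causes of these shifts were not tested. Depth limits what can be said of genes below 1 CPM.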

Other observations

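Among values that belong to no comparison, 48 genes on the X chromosome or on unplaced sequence passed the same test, 46 of them on X, beside the uneven *Xist* and *Ddx3y* levels. By chromosome, the lower share ran from 0.836% of tested genes on chromosome 15 to 2.38% on chromosome 14, and the higher share from 4.16% on chromosome 12 to 7.53% on chromosome 17. Predicted and Riken-named genes made up 16 of the lower and 18 of the higher genes. Astrocyte markers summed to 242.3 to 274.9 CPM in MLIV and 227.4 and 244.3 CPM in WT replicates 1 and 2, against 2118 to 2975 CPM in the FD libraries.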
